A study of Mus musculus with 4 samples.

Results

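Transcripts of 46 genes of mitosis and proliferation were compared between mouse skin epithelial cells after a long serial culture (15p cells) and the freshly sorted cells (0p cells). The genes were taken by their names in the array files. They had 62 probes among 39429, and 71 spots among 43020, on each of 4 whole-genome 2-colour arrays. All 46 genes passed the filter on dim signals, out of 17374 genes that did. All 4 arrays measured each of the 62 probes well above background, in 15p and in 0p RNA.

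The cells came from adult C3H/HeN mice. The 15p cells were CD49f+ CD34+ cells sorted at the end of culture 15 in a row, where every culture lasted 10 days with Wnt-3a on collagen-coated 60-mm dishes and such cells were sorted again for the next. The 0p cells were CD49f+ CD34+ cells sorted from the primary skin epithelial cells. Wnt-3a is the labelled treatment of 15p and of 0p RNA alike, and it is not clear from the labels whether 0p cells met it. CD49f is integrin alpha 6, a protein of basal keratinocytes, and CD34 marks the hair follicle bulge in the mouse. Each array carried 15p RNA in one dye and 0p RNA in the other, and each of 2 biological replicates had a forward array, with 15p in Cy5, and a swapped array, with 15p in Cy3. No label ties the replicates to separate animals or cultures, so the spread between these 2 RNA pairs may be technical. A limma p-value on the pair means sets each mean against a variance drawn mostly from all genes (prior degrees of freedom 8.89, residual 1). It does not measure how well the 2 pairs agree for a single gene.

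In mitosis, cyclin-dependent kinase 1 with its B-type cyclins starts chromosome condensation and spindle assembly. The spindle assembly checkpoint then holds back the anaphase-promoting complex until every kinetochore is attached, after which separase cuts cohesin and the cell divides. Many genes of this machinery are known to be transcribed most in G2 and M phase. In bulk RNA a summed level of such transcripts follows the share of cells in those phases, and fewer such cells cannot be told apart from less RNA per cell.

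The promoters of these genes shared short motifs that played no part in how the genes were chosen. A motif of the cell cycle homology region type (CHR; TTTGAA or TTCGAA, either strand), known as a binding site of the DREAM and B-Myb/Foxm1 complexes, and the CCAAT box (CCAAT or ATTGG), known as the binding site of NF-Y, were searched in windows of 250 bases before to 50 bases after each gene start (RefSeq, GRCm38.p6). Windows were matched for 38 of the 46 genes. At least 1 window held a CHR-type motif in 29 of 38 genes. By window the share was 78.0% for these genes, against 14.2% of 13035 windows of tested genes and 19.2% of all 32851 windows. A CCAAT box was in 78.0% of their windows, against 38.1% for tested genes and 37.4% for all. At least 2 CCAAT boxes were in 51.2%, against 14.0% and 11.7%. A CHR-type match that began within 50 bases of the gene start, a distance chosen after the positions were seen, was in 68.3% of the windows, against 3.7% for tested genes and 5.31% for all. A match is a description of letters and not of a bound site.

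**Figure D1:**
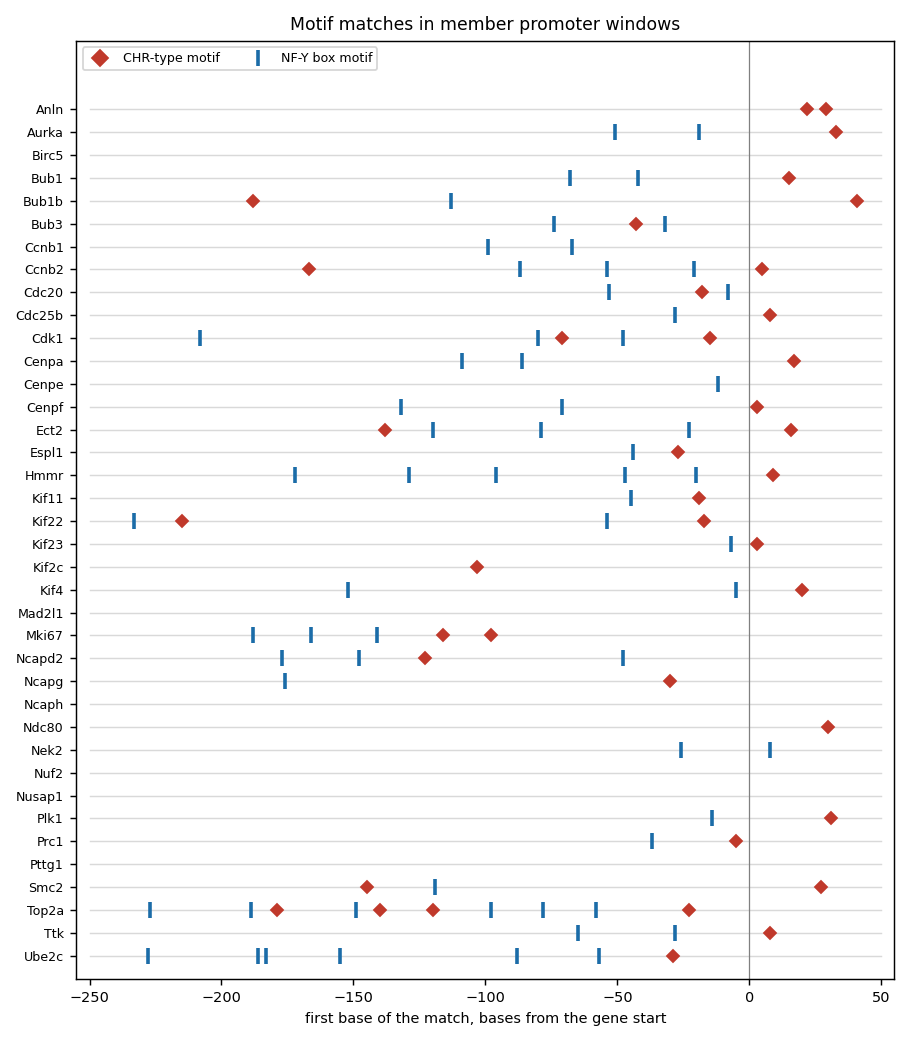
Motif matches in the promoter windows of 38 mitosis and proliferation genes (1 window a gene), with the first base of each match in bases from the gene start on the x axis and genes in alphabetical order. Diamonds are CHR-type matches and bars are CCAAT boxes, on either strand, and most genes have a diamond within 50 bases of the start.

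The windows of 4 of the genes whose values are always given are shown because they hold a CHR-type motif. Aurka, whose window has such a match at 33, comes after them in that order and is not shown. Mki67 lies at chr7:135716330-135716629, Top2a at chr11:99024140-99024439 and Cdk1 at chr10:69352863-69353162, all on the minus strand, and Plk1 at chr7:122159185-122159484 on the plus strand. Each reads 5′ to 3′ in the direction of the gene, and capitals mark the CHR-type motifs and the CCAAT boxes on either strand.
Mki67: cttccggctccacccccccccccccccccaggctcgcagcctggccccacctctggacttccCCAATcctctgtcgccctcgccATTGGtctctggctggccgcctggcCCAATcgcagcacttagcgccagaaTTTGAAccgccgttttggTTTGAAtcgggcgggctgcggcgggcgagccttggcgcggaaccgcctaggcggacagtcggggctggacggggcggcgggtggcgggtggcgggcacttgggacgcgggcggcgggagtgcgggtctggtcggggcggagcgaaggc
Top2a: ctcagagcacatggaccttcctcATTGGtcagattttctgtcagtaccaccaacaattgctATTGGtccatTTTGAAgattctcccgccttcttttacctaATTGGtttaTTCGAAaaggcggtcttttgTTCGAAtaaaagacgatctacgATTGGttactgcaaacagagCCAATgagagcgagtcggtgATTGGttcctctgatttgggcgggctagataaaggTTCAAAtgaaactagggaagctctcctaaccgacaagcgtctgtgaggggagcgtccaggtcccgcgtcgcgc
Cdk1: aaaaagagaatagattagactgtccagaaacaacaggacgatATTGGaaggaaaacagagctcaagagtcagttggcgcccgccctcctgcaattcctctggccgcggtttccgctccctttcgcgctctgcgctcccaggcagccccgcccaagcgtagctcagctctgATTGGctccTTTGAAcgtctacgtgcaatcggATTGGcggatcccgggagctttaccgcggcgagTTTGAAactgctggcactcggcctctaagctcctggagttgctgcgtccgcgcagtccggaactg
Plk1: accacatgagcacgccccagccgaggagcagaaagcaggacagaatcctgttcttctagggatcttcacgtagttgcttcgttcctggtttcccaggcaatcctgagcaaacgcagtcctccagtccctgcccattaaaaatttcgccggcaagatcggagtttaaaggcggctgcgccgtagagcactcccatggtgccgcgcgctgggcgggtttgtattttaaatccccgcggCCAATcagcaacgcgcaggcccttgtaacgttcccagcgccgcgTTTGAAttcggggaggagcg

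The CHR-type matches of Mki67 began at -116 and -98 from the gene start, and those of Cdk1 at -71 and -15. Plk1 had a single match, at 31. Top2a had its matches at -179, -140, -120 and -23. Genes with a CHR-type match had a median log2 ratio of 15p over 0p of -0.021 (29 genes, 20 negative), against -0.076 for the 9 matched genes without one (7 negative).

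Before the ratios are read, the arrays of a pair must be set against each other. The forward and the swapped array of a replicate tended to opposite signs. Across the 46 genes, which are not independent replicates and share the same arrays, the correlation was -0.45 in replicate 1 and -0.51 in replicate 2 (Pearson). Over all genes it was -0.55 and -0.40. The arrays of a replicate differed in sign for 31 of the 46 genes in replicate 1 and for 26 in replicate 2. No share over all genes stands beside these counts, and they are not read as particular to the 46. Between the replicates, the forward arrays correlated at 0.41 across the 46 genes and the swapped arrays at 0.022, against 0.27 and 0.41 over all genes. The direction of each ratio rests on the dyes given in the labels, and these values cannot tell apart a dye effect from a wrong dye label on 1 array of each pair. The forward array of replicate 2 was the widest. Its SD of log2 ratios over all genes was 0.289, against 0.129 to 0.14 on the others.

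None of the 46 genes was called higher and none lower in 15p cells (limma on the pair means, Benjamini-Hochberg over all genes at 0.05). Over all genes 0% were called in either direction, and the lowest adjusted p was 0.749. The mean log2 ratios of the 46 ran from -0.27 to 0.16, and each mean below stands with its SD over n = 2 replicates. At an unadjusted p under 0.05 there were 6 of the 46 (13.0%, against 6.30% of all genes), of which 6 were lower and 0 higher, against 3.38% and 2.92% of all genes. That count depended on the processing: with the deposited log ratios of the value table it was 2 of the 46 (4.35%, against 5.24% of all genes), and with median centring in place of loess it was 4 lower and 2 higher (13.0%, against 8.06% of all genes). Every 95% interval of the 46 lay within 0.5 log2 units of 0, and 38 lay within 0.25, with a median half-width of 0.12. These intervals rest on 2 pair means and on a variance drawn mostly from all genes. They do not hold the gap between forward and swapped arrays.

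The median log2 ratio of the 46 genes was -0.026, against 0.0025 for all tested genes. It was -0.015 in replicate 1 and -0.056 in replicate 2. Ratios were below 0 for 32 of the 46 (69.6%), against 48.6% of all genes. Where arrays were centred on their median with no loess curve, 22 of the 46 were below 0. The ratios of all genes were higher in that setting too, with a median of 0.025, against 0.0060 for the 46. Both replicates were negative for 20 genes (43.5%, against 27.2% of all) and both positive for 6 (13.0%, against 29.8%), and in the other 20 the replicates had opposite signs. By array, 27 and 24 of the 46 were negative on the forward and swapped arrays of replicate 1 (45.4% and 54.2% of all genes) and 28 on each array of replicate 2 (48.8% and 49.2% of all genes).

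**Figure D2:**
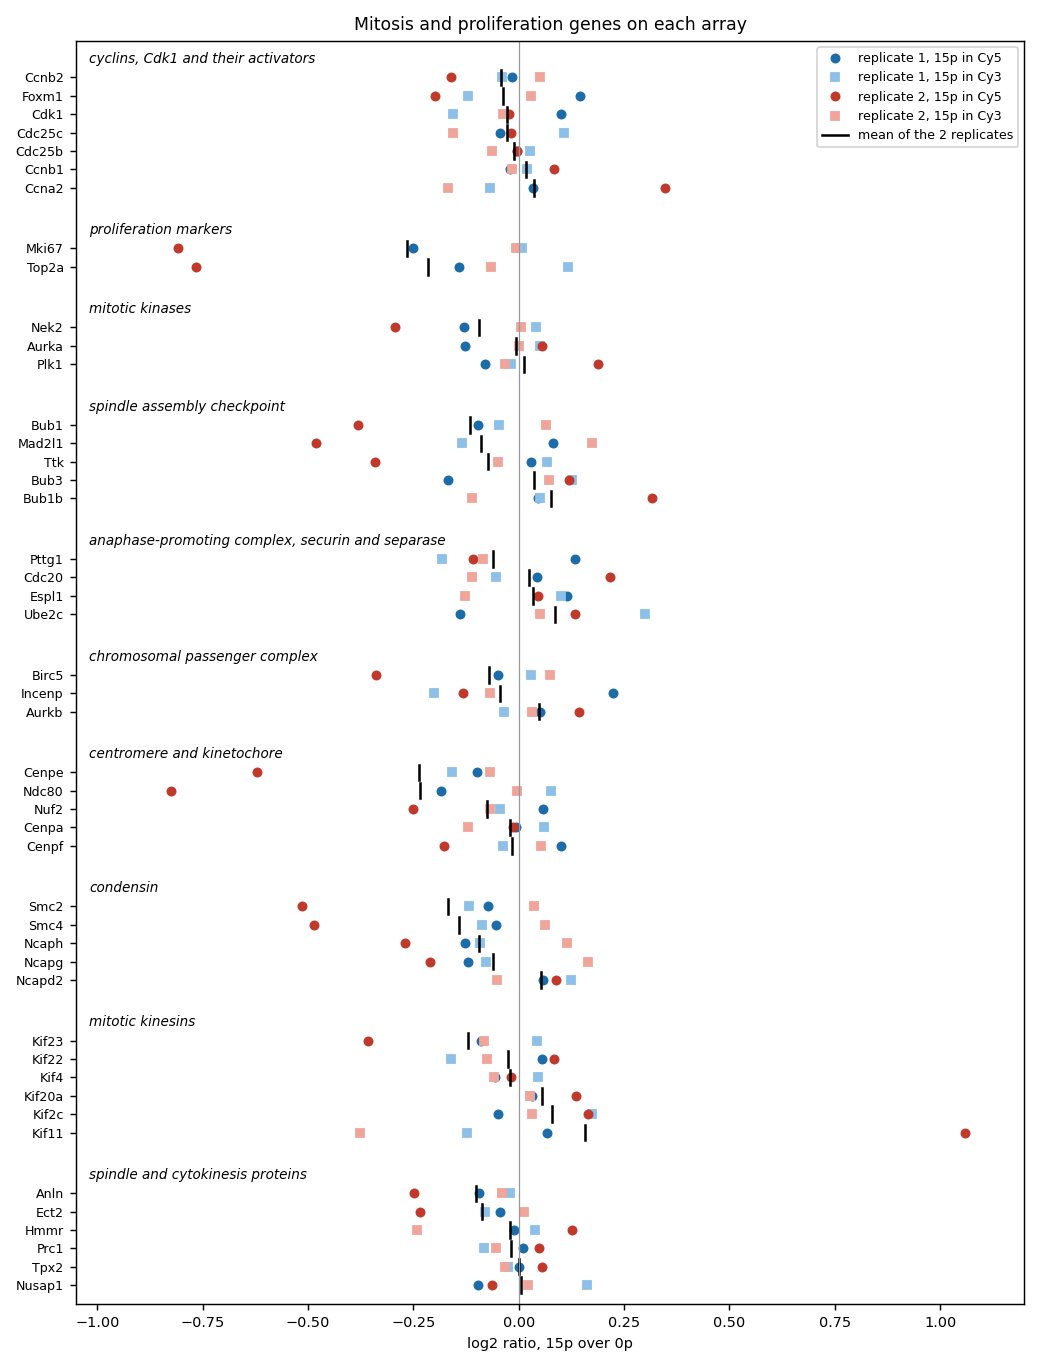
Log2 ratio of 15p over 0p (x axis) of each of the 46 genes on each of 4 arrays, grouped by role; circles are arrays with 15p in Cy5, squares arrays with 15p in Cy3, blue replicate 1, red replicate 2, and the black bar is the mean of the replicates. The points far from 0 are mostly red circles, the forward array of replicate 2, with Kif11 at 1.06 and Ndc80 at -0.82.

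The 2 proliferation markers had the lowest median of the 10 roles, -0.24, set mainly by the forward array of replicate 2 (median -0.79). In replicate 1 their median was -0.067, above that of condensin (-0.095), and it was 0.062 on the swapped array of that replicate. Mki67, which encodes the Ki-67 protein that coats mitotic chromosomes, had normalised intensities of 13041, 14456, 12916 and 21805 in 15p cells, against 15525, 14377, 22633 and 21921 in 0p cells (forward and swapped arrays of replicate 1, then of replicate 2, an order kept for all pairs of values). Its log2 ratios were -0.25 and 0.0079 in replicate 1 and -0.81 and -0.0077 in replicate 2. The 15p cells were thus clearly lower on the forward arrays and level with 0p cells on the dye swaps. The mean was -0.27 ± 0.20 (SD, n = 2; limma unadjusted p = 0.00378, adjusted p = 0.749). The probe lies at mm9 chr7:142881591-142881650, and a probe at chr7:142884764-142884823 gave -0.15, -0.052, -0.61 and -0.13 on the same arrays, so it was below 0 on all 4.

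Top2a, the topoisomerase that untangles sister chromatids, had log2 ratios of -0.14 and 0.12 in replicate 1 and -0.77 and -0.067 in replicate 2. Only the forward array of replicate 2 was clearly negative. The arrays of replicate 1 had opposite signs of similar size and averaged close to 0. The mean was -0.21 ± 0.29 (SD, n = 2; limma unadjusted p = 0.0286, adjusted p = 0.749).

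All 5 centromere and kinetochore genes had negative means, with none called. Their median was 0.0068 in replicate 1 and -0.16 in replicate 2. In replicate 1, Nuf2 (0.0068), Cenpa (0.027) and Cenpf (0.032) were above 0, and all 5 were negative only on the forward array of replicate 2. Cenpe, a kinesin that carries chromosomes to the spindle equator, had -0.10 and -0.16 in replicate 1 and -0.62 and -0.069 in replicate 2. It was 1 of 2 genes among the 46 that were negative on all 4 arrays (4.35%, against 3.11% of all genes). Its mean was -0.24 ± 0.15 (limma unadjusted p = 0.00406, adjusted p = 0.749). Ndc80, the microtubule-binding subunit of the outer kinetochore, had -0.18 and 0.078 in replicate 1 and -0.82 and -0.0031 in replicate 2 (mean -0.23 ± 0.25). Its partner in the same complex, Nuf2, had -0.076 ± 0.12. Cenpa, the histone H3 variant of centromeres, had -0.020 ± 0.066, and Cenpf, a large protein of the outer kinetochore, had -0.016 ± 0.067.

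Condensin, the ring that compacts mitotic chromosomes, had 4 of 5 measured subunits below 0 and none called. Smc2, an ATPase subunit of both condensins, had -0.073 and -0.12 in replicate 1 and -0.51 and 0.035 in replicate 2 (mean -0.17 ± 0.10; limma unadjusted p = 0.0170). Smc4, the ATPase that pairs with it, followed the same order of arrays, with -0.055 and -0.087 in replicate 1, -0.49 and 0.062 in replicate 2, and a mean of -0.14 ± 0.10. Both were below 0 on 3 arrays and slightly above it on the replicate 2 dye swap. The subunits of condensin I differed in sign, with -0.095 ± 0.023 for Ncaph, -0.061 ± 0.054 for Ncapg and 0.054 ± 0.051 for Ncapd2.

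**Figure D3:**
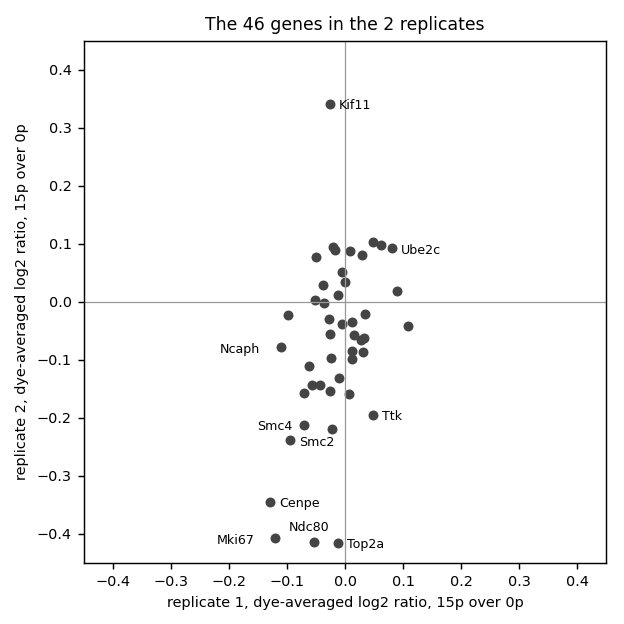
Dye-averaged log2 ratio of 15p over 0p in replicate 1 (x axis) and replicate 2 (y axis) for the 46 genes, with axes of equal scale. Replicate 1 lies within a narrow band around 0, while replicate 2 spreads from Mki67, Ndc80 and Top2a at the bottom to Kif11 at the top.

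Across the 46 genes the replicate means had a Pearson correlation of 0.42, against 0.089 over all genes. Where replicate 2 was taken from its swapped array alone, they were -0.25 and -0.057. These correlations run over genes that share arrays and are given as a description.

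Cdk1, its cyclins and their activators had means from -0.041 to 0.036, with 5 of 7 below 0 and none called. Cdk1 had 0.10 and -0.16 in replicate 1 and -0.023 and -0.038 in replicate 2 (mean -0.029 ± 0.0016). Its small SD hides a gap between the arrays of replicate 1. The other Cdk1 probes had means of 0.026 and 0.051, of the opposite sign. Ccnb1, the cyclin B1 that activates Cdk1, had -0.020 and 0.019 in replicate 1 and 0.084 and -0.015 in replicate 2 (mean 0.017 ± 0.025). These values straddle 0 within each pair, and the other Ccnb1 probes had means of -0.084 and -0.042. Ccnb2, the other B-type cyclin, had -0.041 ± 0.020, and Ccna2, the cyclin of S and G2 phase, had 0.036 ± 0.076. Foxm1, a transcription factor that drives G2/M genes, had 0.15 and -0.12 in replicate 1 and -0.20 and 0.030 in replicate 2 (mean -0.036 ± 0.068), with both signs in each pair. Its other probe had a mean of -0.14, with -0.41 on the forward array of replicate 2. The phosphatases that activate Cdk1 were at -0.028 ± 0.083 for Cdc25c and -0.011 ± 0.033 for Cdc25b.

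The mitotic kinases were likewise near 0. Plk1, polo-like kinase, had -0.081 and -0.019 in replicate 1 and 0.19 and -0.033 in replicate 2 (mean 0.014 ± 0.090). Aurka, the centrosomal Aurora kinase, had -0.13 and 0.050 in replicate 1 and 0.056 and -0.000050 in replicate 2 (mean -0.0055 ± 0.047). Neither kept a sign across replicates. Nek2, a kinase of centrosome separation, had -0.094 ± 0.071 and was negative on both forward arrays and positive on both dye swaps.

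Of the spindle assembly checkpoint genes, 3 of 5 were below 0 and none was called. Bub1, a checkpoint kinase, was measured by a probe printed in 10 spots an array, which shows the error within an array. On the forward array of replicate 2 its 9 usable spots ran from -0.41 to -0.34 with a mean of -0.38 ± 0.022 (SD over spots). On the swapped array 10 spots ran from -0.015 to 0.13 with a mean of 0.065 ± 0.041. The spots of the pair did not overlap, and the gap between these arrays exceeded the spread between spots of either. In replicate 1 the spot means were -0.096 ± 0.058 on the forward and -0.048 ± 0.041 on the swapped array, which overlapped. The mean ratio of Bub1 was -0.11 ± 0.061 (SD, n = 2 replicates).

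**Figure D4:**
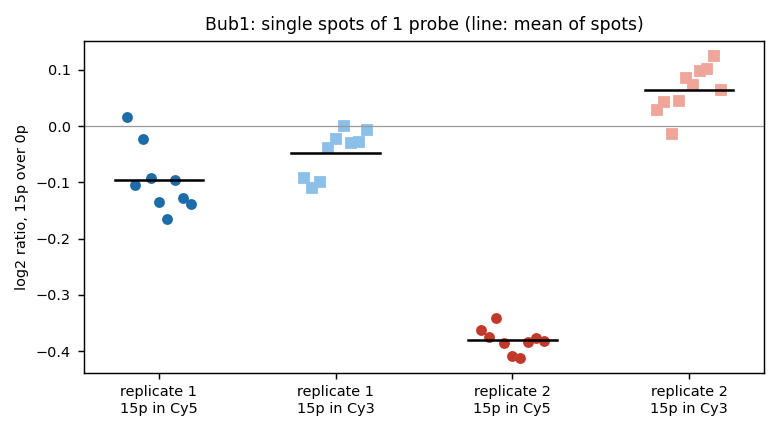
Log2 ratio of 15p over 0p (y axis) for the single spots of the Bub1 probe on each array (9 or 10 usable spots), with the mean of the spots as a black line. Spots of the forward array of replicate 2 lie between -0.41 and -0.34, apart from every spot of the other arrays.

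Mad2l1, the checkpoint protein Mad2 that inhibits Cdc20, was measured by 3 probes and was chosen for a full description after its values were seen. The brightest gave 0.082 and -0.13 in replicate 1 and -0.48 and 0.17 in replicate 2 (mean -0.091 ± 0.091). The others gave -1.29 and 0.76, and -1.82 and 0.92, in replicate 2, against values between -0.10 and 0.15 in replicate 1. All 3 were negative with 15p in Cy5 and positive on the dye swap in replicate 2, and their 4-array means of -0.091, -0.098 and -0.21 hide that opposition. Ttk, the kinase Mps1, had -0.074 ± 0.17, and Bub3, which recruits Bub proteins to kinetochores, had 0.037 ± 0.082. Bub1b, which encodes the checkpoint protein BubR1, was among the 5 highest of the 46 genes, with 0.046 and 0.051 in replicate 1, 0.32 and -0.11 in replicate 2, and a mean of 0.076 ± 0.039.

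Among the genes of the anaphase-promoting complex, securin and separase, 3 of 4 were above 0 and none was called. Ube2c, the ubiquitin-conjugating enzyme of the complex, had -0.14 and 0.30 in replicate 1 and 0.13 and 0.051 in replicate 2. Its mean of 0.086 ± 0.0082 was the second highest of the 46, although the arrays of replicate 1 had opposite signs. Cdc20, the activator of the complex, had 0.023 ± 0.040, Espl1, separase, had 0.033 ± 0.11, and Pttg1, securin, had -0.061 ± 0.051. In the chromosomal passenger complex, Birc5, which encodes survivin, had -0.050 and 0.030 in replicate 1 and -0.34 and 0.075 in replicate 2 (mean -0.071 ± 0.087), a sign that followed the dye in both pairs. Its partners were at 0.047 ± 0.056 for Aurkb, the kinase, and -0.044 ± 0.079 for Incenp, the scaffold.

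The 6 mitotic kinesins were split, with 3 above and 3 below 0. Kif11, the Eg5 motor that separates spindle poles, had 0.068 and -0.12 in replicate 1 and 1.06 and -0.38 in replicate 2. Its normalised intensities in replicate 2 were 2476 and 1279 in 15p cells, against 1188 and 1660 in 0p cells, with 15p in Cy5 first. It was the highest of the 46 (mean 0.16 ± 0.26; limma unadjusted p = 0.0765, adjusted p = 0.749), and 15p was higher whenever it was in Cy5 and lower whenever it was in Cy3. Kif20a, a kinesin of cytokinesis, was positive on all 4 arrays (0.032 and 0.027 in replicate 1, 0.14 and 0.026 in replicate 2; mean 0.055 ± 0.037), as were 3.67% of all genes. Kif2c, a microtubule depolymerase of centromeres, had -0.050 and 0.17 in replicate 1 and 0.16 and 0.032 in replicate 2 (mean 0.080 ± 0.026). Kif23, a subunit of centralspindlin, had -0.12 ± 0.14, Kif22, which pushes chromosome arms along the spindle, -0.025 ± 0.039 and Kif4, a chromosome-bound kinesin, -0.022 ± 0.023.

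Of 6 spindle and cytokinesis proteins, 5 were below 0 and none was called. Anln, the actin-binding anillin of the cleavage furrow, was negative on all 4 arrays, with -0.095 and -0.020 in replicate 1, -0.25 and -0.039 in replicate 2 and a mean of -0.10 ± 0.061. Ect2, the exchange factor that activates RhoA at the furrow, had -0.087 ± 0.035. Hmmr, Prc1, Tpx2 and Nusap1, all microtubule-binding proteins of the spindle, lay between -0.021 and 0.0062.

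With each gene read by its brightest probe, ratios beyond 1.5-fold came from 1 array, while 2 dimmer probes of Mad2l1 passed that size on both arrays of replicate 2. On the forward array of replicate 2, 5 of the 46 genes (10.9%, against 3.89% of all genes) were beyond 1.5-fold: Cenpe, Mki67, Ndc80 and Top2a below 0 and Kif11 above it. On each of the other 3 arrays 0 of the 46 were, against 0.357% and 0.0633% of all genes on the forward and swapped arrays of replicate 1 and 0.207% on the swapped array of replicate 2. The forward array of replicate 2 also gave the largest absolute ratio for 29 of the 46 genes (63.0%, against 56.8% of all), and for all 6 genes with an unadjusted limma p under 0.05. The other array of the same RNAs gave opposite signs for 26 of the 46, a count with no share over all genes beside it. The difference between forward and swapped arrays was tested as the dye term of a limma fit with a replicate block. It was called for 1 of the 46 genes, Kif11, higher with 15p in Cy5, against 2.55% of all genes. Its dye coefficient was 0.41 on the log2 scale (limma adjusted p = 0.000413). Replicate 2 carried most of it, with 1.06 and -0.38, against 0.068 and -0.12 in replicate 1. The prior degrees of freedom of a fit with these terms were estimated as infinite. The p-value thus rests on a variance drawn from all genes and does not measure how well the replicates agree. In the other direction 0 were called, against 1.25% of all genes. The next largest coefficients were those of Ndc80, Mki67 and Top2a, at -0.27, -0.27 and -0.24 (limma adjusted p = 0.0543, 0.0629 and 0.115). By sign alone, 6 of the 46 (13.0%) were positive on both forward and negative on both swapped arrays, against 18.1% of all genes.

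**Figure D5:**
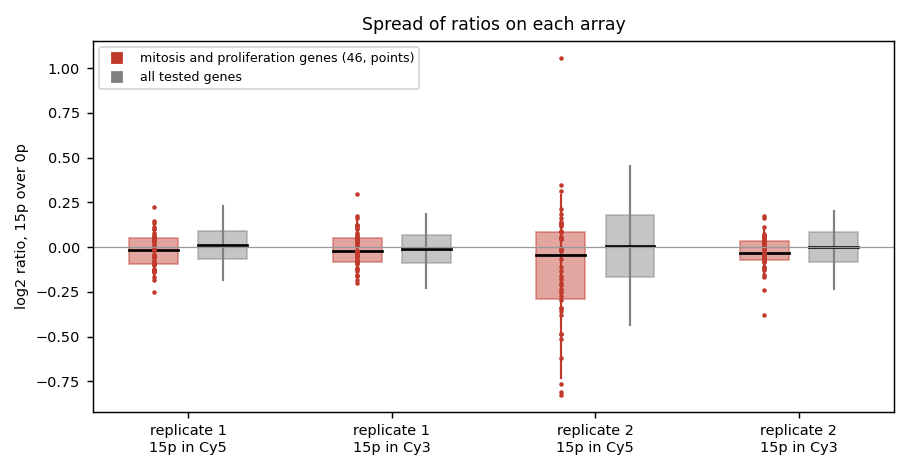
Log2 ratio of 15p over 0p (y axis) on each array for the 46 genes (red, with points) and all tested genes (grey). Boxes span the 25th to 75th percentile with the median as a black line, and thin lines the 5th to 95th percentile. The forward array of replicate 2 is the widest, and there the 25th percentile of the 46 genes is -0.29, against -0.16 for all genes.

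Leaving out single arrays moved these calls. Without the forward array of replicate 1, a fit of 3 arrays with a dye term called 10 of the 46 genes lower (21.7%, against 9.12% of all genes) and 1 higher (2.17%, against 8.84%), by limma with Benjamini-Hochberg adjustment. The 10 were Bub1, Cenpe, Kif23, Mad2l1, Mki67, Ndc80, Smc2, Smc4, Top2a and Ttk, and the 1 was Kif11. That fit gives the forward array of replicate 2 as much weight as the other 2 together, and no other array of its dye orientation checks it. The dye term fits that array exactly, so it adds nothing to the error. The error came only from the gap between the 2 swapped arrays, pooled over all genes (prior degrees of freedom infinite). These calls therefore do not measure how well the replicates agree. Without that replicate 2 array instead, 0 of the 46 were called in either direction (0.242% of all genes higher, 0.265% lower), with 1 gene at an unadjusted p under 0.05. Mki67 then had -0.13 and Top2a -0.058, and Kif11 turned to -0.091.

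Other genes of cell division, listed by complex, gave 136 genes on the arrays and 133 tested, none of them called. At an unadjusted limma p under 0.05, 12 were lower (9.02%, against 3.38% of all genes) and 1 of the 133 was higher, against 2.92% of all genes. The median of the 133 was -0.027, and 83 of them were below 0, against 48.6% of all genes. By array their median was -0.016 and -0.026 in replicate 1, and -0.11 on the forward array of replicate 2 against -0.0013 on its dye swap. Cohesin and its regulators had the lowest list median, -0.11 over 15 genes with 11 below 0, from Wapl, the cohesin release factor (-0.20 ± 0.11), to Mau2, a subunit of the cohesin loader (0.15 ± 0.13). Smc3, a core cohesin subunit, had -0.70 on the forward array of replicate 2 and 0.13 on its dye swap, and is named after its value was seen. Other spindle, kinesin and cytokinesis genes had a median of -0.075 over 26 genes, 19 of them below 0, from Kif20b (-0.22 ± 0.10), a kinesin of late mitosis, to Cep55 (0.11 ± 0.18), a midbody protein.

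The remaining lists stood closer to 0. Other centromere and kinetochore genes had a median of -0.021 over 30 genes (Mis12, -0.18 ± 0.17; Cenpb, 0.073 ± 0.036), and condensin II subunits -0.067 over 3 (Ncapg2, -0.088 ± 0.036; Ncaph2, 0.034 ± 0.028). Subunits and regulators of the anaphase-promoting complex had -0.0054 over 14 genes, from Cdc27 (-0.099 ± 0.061) to Fzr1 (0.098 ± 0.089). Other mitotic kinases and entry regulators had -0.043 over 15, from the phosphatase Cdc25a (-0.10 ± 0.024) to Cdca2 (0.032 ± 0.0027). Rb, E2F and DREAM regulators, which control transcription of the cell cycle genes, had -0.015 over 20, from Rbl1 (-0.14 ± 0.063) to E2f4 (0.11 ± 0.15). G1 cyclins and kinases were the only one of these 8 lists with a median above 0, 0.026 over 10 genes, from Cdk7 (-0.098 ± 0.13) to the cyclin Ccnd3 (0.081 ± 0.088).

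Markers bear on what the RNAs were made from. Of 10 basal and bulge keratinocyte markers, 7 were well above background on all 4 arrays in 15p and in 0p cells, among them Krt5, Krt14, Itga6 and Trp63. Their ratios had a median of 0.00042 and ran from -0.38 ± 0.60 for Sox9, a bulge transcription factor with -1.56 on the forward array of replicate 2 and -0.053 on its dye swap, to 0.19 ± 0.12 for the basal keratin Krt14. Of the 7, 3 had an unadjusted limma p under 0.05, against 6.3% of all genes, and none was called. Sox9 was below 0, and Krt14 and Krt15 (0.17 ± 0.033) were above it. Lgr5 and Lhx2 were well above background on no array in either RNA. The sort marker Cd34 was well above background on 0 arrays in 15p and 1 in 0p cells. Of 8 markers of differentiating keratinocytes 5 were above background on all arrays in both RNAs, with ratios from -0.025 to 0.20 and a median of 0.076. Of the 5, 2 had an unadjusted limma p under 0.05, against 6.3% of all genes, and none was called. They were Sprr1a (0.20 ± 0.11) and Tgm1 (0.20 ± 0.13), both positive on all 4 arrays. Krt1 and Dsg1a were well above background on no array in either RNA. In both RNAs, 2 of 7 fibroblast and 4 of 7 immune markers were above background on all arrays. So were 3 of 6 endothelial and 3 of 6 melanocyte markers. The medians of these lists lay between -0.077 and 0.059. Dcn, Lum, Pdgfra, Lyz2, Cdh5, Tek, Emcn and Tyrp1 were well above background on no array in either RNA. The part of these cell types in the ratios of the mitosis genes was not tested.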

How the data were processed

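Both RNAs were labelled (200 ng of total RNA) and 825 ng of each cRNA was hybridised on 4 arrays, per the labels' protocols. Per dye, the deposited scanner tables give each spot's mean intensity and background intensity, written by Agilent Feature Extraction 10.7.3.1, per the file headers and the submitters' processing notes. The deposited processed intensity was background-subtracted and dye-normalised, and the deposited log10 ratio is Cy5 over Cy3, per the file headers. Other deposited columns are flags of 0 or 1. The value table of the series held the same deposited log10 ratios, within 0.00449.

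Intensities were corrected with normexp (offset 50), loess-normalised within each array and turned to 15p over 0p (limma 3.58.1, R 4.3.3). Flagged spots (154 to 286 an array) were left out, and no spot was saturated. Spots of a probe were averaged. Probes not well above background on every array in at least 1 RNA were dropped, which left 21675, and the brightest stood for its gene. Of the 46 genes, 12 had several kept probes, whose means differed by at most 0.12 log2 units, with mixed signs for 3 (Ccnb1, Cdk1 and Tpx2). Members were taken by the files' gene names, other genes through RefSeq accessions (26055 probes matched), and probe positions are in mm9. Arrays of a pair were averaged, giving n = 2, and tested against 0 with lmFit and eBayes (prior degrees of freedom 8.89, residual 1). Each replicate had its own slide and scan, which cannot be told apart from it. As a pairing check, arrays of the same replicate, each centred on its orientation's mean, correlated at -0.26 across genes. The genes, lists and tests were chosen with earlier results of these data known. The rule for named genes takes 8 genes always (Mki67, Top2a, Ccnb1, Cdk1, Foxm1, Plk1, Aurka and Birc5), any called gene, the 5 highest and 5 lowest means, genes with an unadjusted p under 0.05 and genes of 1 sign on all 4 arrays. From each list of other cell division genes it takes the highest and the lowest tested gene. The number of arrays limits the precision.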

Additional observations from a re-analysis of the deposited data

Results flagged for a closer look

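For 9 of the 46 genes the ratio of 15p over 0p had a given sign on both forward arrays and the opposite sign on both swapped arrays. In 6 of them it was positive with 15p in Cy5 (13.0%, against 18.1% of all genes) and in 3 negative (6.52%, against 14.1%). The difference between orientations was tested as the dye term of a limma fit with a replicate block. Among the 46 it was called for Kif11 alone (limma adjusted p = 0.000413). Of all genes, 2.55% were called higher and 1.25% lower with 15p in Cy5. For Kif11 the difference was mostly that of replicate 2 (1.06 and -0.38, against 0.068 and -0.12 in replicate 1), and the p-value does not measure how well the replicates agree. Nek2, Birc5 and Nusap1 were the 3 with negative values in Cy5.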

How the results depend on the processing

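The counts of 0 called genes among the 46 were kept with processed signals, the value table, median centring, Aquantile scaling, no filter, a stricter filter, probe means, separate arrays, separate channels, and a replicate block with a dye term (0 higher, 0 lower; 7 and 53 of all genes, with the prior degrees of freedom estimated as infinite). Aquantile leaves ratios as they are by construction. A fit without 1 array leaves 1 array alone in its dye orientation, and that array adds nothing to the error. Over fits without 1 array, members called higher ranged from 0 to 1 and lower from 0 to 10. The count with an unadjusted p under 0.05, 6 as reported, was 2 with processed signals (4.35%, against 5.28% of all genes), 2 with the value table, 4 with the block (8.70%, against 2.70%), 2 with separate arrays (4.35%, against 1.86%), 1 with separate channels (2.17%, against 0.253%), and from 1 to 21 without 1 array (2.17%, against 3.45%, to 45.7%, against 30.6%). The median of the 46 was 0.0060 with median centring, where that of all genes was 0.025, and ran from -0.056 to -0.015 without 1 replicate and from -0.041 to -0.022 without 1 array. Each of the 18 named genes kept its side of the test in every alternative that gave a test, except 7 in the fit without the forward array of replicate 1, and leaving out a whole replicate gave values with no test. Without replicate 2, 4 of 18 named genes changed sign, and without its forward array, 6 of 18. Every probe of the 46 genes was well above background. Aurkb, Cenpf and Ncapg were dim even so, with normalised intensities of 110 to 147, 96 to 122 and 156 to 243, the offset of 50 included.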

Other observations

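The share of G and C bases in the 60-base probes of the 46 genes ran from 18.3% (Cdk1) to 53.3% (Ube2c), with a median of 41.7%, against 43.3% for all tested genes. Across the 46 probes, which share the arrays, this share and the ratio of 15p over 0p had a Spearman rho of -0.11 and 0.53 on the arrays of replicate 1 and of 0.25 and -0.30 on those of replicate 2, with 15p in Cy5 first. Over all genes the values were -0.15 and 0.24, and 0.21 and -0.091. The sign turned with the dye orientation within each replicate and differed between the replicates.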
